A study of Mus musculus with 33 samples.

Results

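The binding of p53 after DNA damage was followed in B cell lymphomas that lack Arf, by setting the peak lists of 3 doxorubicin-treated tumours against those of the same 3 tumours given water. These are 6 of the 26 p53 peak lists and 6 of the 33 samples of the series, chosen by their titles (tumours 5, 6 and 7, 3 h). All 6 come from lymph node B cells of Eµ-myc mice of strain C57/Bl6 with the genotype Arf-/- Trp53+/+, so that controls and treated cells alike carry the Myc transgene, lack Arf and keep both wild-type Trp53 alleles. The treated cells received 1 µM doxorubicin for 3 h, and the control cells 1 volume of water per 1000 for the same time. Chromatin was immunoprecipitated with the CM5p antibody against p53 and sequenced (ChIP-seq). The lymph node cells were used without further purification, so other cells of the node may be present, and peak positions hold no marker by which the B cell label could be checked. Nothing in the labels says whether the 3 tumours came from 3 mice. The p-values from these 6 lists measure the spread between tumours only. Where further control lists of the same tumours were added, several lists of a tumour entered as controls. Tests that did not shuffle labels within tumours then counted these lists as independent.

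p53 is a transcription factor that Mdm2 normally keeps scarce by binding it and marking it for destruction. Doxorubicin poisons topoisomerase II and breaks DNA. The kinases that sense the breaks, Atm and Chk2 among them, modify p53 and Mdm2, and p53 accumulates and binds response elements in DNA as a tetramer. Arf is the inhibitor of Mdm2 that answers to oncogenes such as Myc. Tumours without it keep a p53 that can still be raised by DNA damage.

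Each list gives the position and width of its peaks (mm9) and no height, so binding is described here by where peaks were called and by how wide they were. Read depth per library is unknown. The 3 doxorubicin lists and the water list of tumour 5 hold wide peaks, the smallest of 314 to 375 bp. The water lists of tumours 6 and 7 hold narrow peaks from 54 and 52 bp upwards, and 51.9% and 61.0% of these lay within 500 bp of another peak, against 1.45% to 4.09% in the wide lists. In tumours 6 and 7 the kind of list and the treatment therefore change together and cannot be told apart. In tumour 5 both lists are wide, and its values are given beside those of the group. One further list stands apart, that of doxorubicin in tumour 6, many of whose peaks have no counterpart in the other lists of activated p53 (described below with values with and without it).

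Doxorubicin lists were longer than water lists in all 3 tumours. Tumour 5 had 2206 peaks with water and 11346 with doxorubicin, tumour 6 had 1662 and 8250, and tumour 7 had 858 and 9523. The groups did not overlap. The mean was 1575 ± 678 peaks with water and 9706 ± 1556 with doxorubicin (SD, n = 3). Peaks covered 1.39 Mb with water and 6.53 Mb with doxorubicin in tumour 5, 0.338 and 5.28 Mb in tumour 6, and 0.171 and 6.14 Mb in tumour 7. In tumour 5 the fold was almost the same in number (5.14) and in length (4.70), since the median width was 514 bp with water and 498 bp with doxorubicin. In tumours 6 and 7 the length rose 15.6-fold and 35.9-fold while the number rose 4.96-fold and 11.1-fold, as the median width went from 101 to 517 bp and from 99.5 to 552 bp. Over the 3 tumours the log2 ratio of peak numbers was 2.72 (two-sided exact permutation p = 0.1, which 3 against 3 libraries cannot go below). With the lists paired by tumour, an exact sign-change test gave p = 0.25, the smallest that 3 tumours allow. Water is only one of the unactivated states of these tumours. The same tumours were also left untreated, or given 0.5 volumes of DMSO per 1000 or 5 µM (+)-Nutlin, the enantiomer that hardly binds Mdm2, for 3 h. Against all 12 lists of these states and water the log2 ratio was 2.83. The exact permutation p was 0.0022 with all lists counted as independent, and 0.008 with labels shuffled only inside each tumour. Neither design can go lower. All unactivated lists of tumours 6 and 7 hold narrow peaks, as their water lists do, so kind of list and treatment change together here too.

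**Figure D1:**
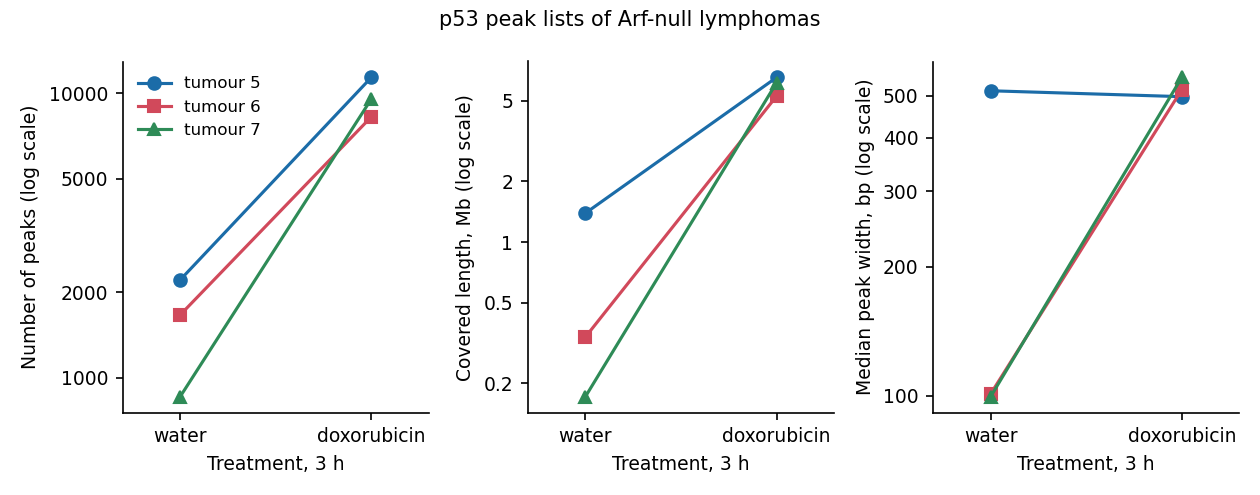
Number of peaks, covered length in Mb and median peak width in bp (all on log axes) of the water and the doxorubicin list of tumours 5, 6 and 7, 1 point per library and 1 line per tumour. Peak numbers are 858 to 2206 with water and 8250 to 11346 with doxorubicin, and the median width changes in tumours 6 and 7 but stays near 500 bp (514 and 498 bp) in tumour 5.

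Merging the peaks of the 6 lists wherever they shared at least 1 bp gave 15038 regions, and almost all of them, 14997, had a peak in a doxorubicin list. A set of 2728 regions (18.1% of all) had a peak under doxorubicin in every tumour and under water in none, and is called gained here. No region was called in all 3 water lists and no doxorubicin list (0%). Fisher's exact test per region cannot go below p = 0.1 at 3 against 3, so these counts are descriptions: after Benjamini-Hochberg adjustment it called 0 regions, and 0 had an unadjusted p under 0.05. Of the 2539 regions with a water peak, 436 were called in all 6 lists and 1655 in all 3 doxorubicin lists and 1 or 2 water lists. Most doxorubicin regions without a water peak were not shared by all tumours, as 5794 were called in 1 doxorubicin list and 3977 in 2. In tumour 5 alone, with both lists of one kind, 9193 of 11390 regions (80.7%) were called with doxorubicin only, 2147 in both lists and 50 with water only. Of these 9193, 2933 also had a peak in both other doxorubicin lists, and 1300 had one in an untreated, DMSO or (+)-Nutlin list of tumour 5.

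The number of gained regions depended on how many lists had to hold a peak and on which peaks were admitted. It was 4602 without tumour 5, 5705 without tumour 6, 3139 without tumour 7 and 8195 when 1 list of each group could differ. It was 2179 when every doxorubicin list kept only its 8250 widest peaks, as many as tumour 6 has. When each doxorubicin list was reduced to its widest peaks, as many as in the water list of its tumour, 26 regions were gained and 20 lost. Of these widest peaks, 1316 of 2206 (59.7%) lay over a water peak of the same tumour in tumour 5, 709 of 1662 (42.7%) in tumour 6 and 397 of 858 (46.3%) in tumour 7.

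**Figure D2:**
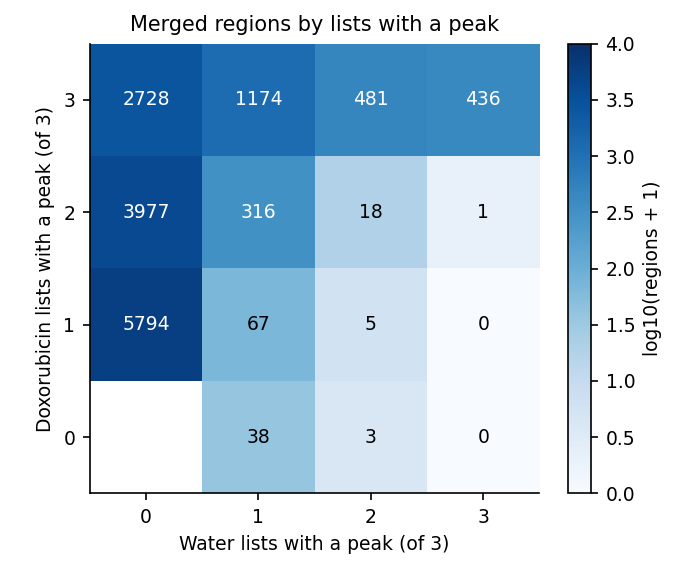
Merged regions by the number of doxorubicin lists (vertical axis) and of water lists (horizontal axis) with a peak, with the count in each field and its log10 as the shade. The left column and the top row hold the larger counts, with 2728 in the corner of 3 doxorubicin and 0 water lists and 436 in that of 3 and 3, while regions with more water than doxorubicin lists number 38 or fewer in each field.

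Most sites called in water-treated cells were also called under doxorubicin. A doxorubicin peak of the same tumour lay over 2156 of 2206 water peaks in tumour 5 (97.7%), 1546 of 1662 in tumour 6 (93.0%) and 828 of 858 in tumour 7 (96.5%). With each doxorubicin list reduced to its widest peaks, as many as the water list holds, the shares were 60.1%, 68.6% and 79.6%. Full doxorubicin lists of the other tumours covered water peaks of tumours 5 and 7 less often than their own did. The shares ran from 89.7% for water peaks of tumour 5 under doxorubicin peaks of tumour 6 to 97.6% under those of tumour 7. Water peaks of tumour 6 were covered more often by the lists of tumours 5 (97.2%) and 7 (95.4%) than by their own (93.0%). The peaks left uncovered were short in tumours 6 and 7, with medians of 59.5 and 86 bp, and had a median of 406.5 bp in tumour 5. Because the narrow lists split sites, the 1546 water peaks of tumour 6 fell under 1065 doxorubicin peaks and the 828 of tumour 7 under 522, while the 2156 of tumour 5 fell under 2153.

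Within the doxorubicin lists, peaks at sites already called with water were wider than peaks at other sites. In tumour 5 the median widths were 818 bp with and 462 bp without a water peak, in tumour 6 they were 1165 and 493 bp, and in tumour 7 they were 1335.5 and 541 bp. The mean log2 ratio was 1.12 ± 0.26 (SD, n = 3), wider in 3 of 3 tumours, with p = 0.25 in an exact sign-change test, the smallest that 3 tumours allow. Ranked by width, 76.4% of the widest 10% of doxorubicin peaks of tumour 5 lay over a water peak, 41.3% of the next 10% and 1.41% of the narrowest 10%. The corresponding values were 42.8%, 5.78% and 0.105% in tumour 7. Tumour 6 had a different course, with 69.6% and 16.1% in the widest classes and then between 4.24% and 7.39% in every class from the third to the last.

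**Figure D3:**
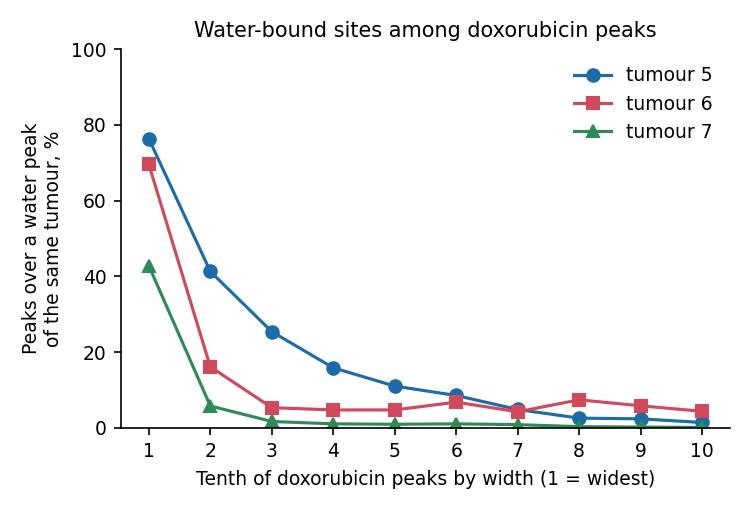
Share of doxorubicin peaks, in percent, that lie over a water peak of the same tumour, for 10 classes of peaks ordered by width (1, widest), 1 line per tumour. The share starts at 76.4%, 69.6% and 42.8% in tumours 5, 6 and 7 and falls to 1.41% and 0.105% in tumours 5 and 7, while in tumour 6 it levels off between 4.24% and 7.39%.

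In tumour 5 the same site could be measured under both treatments, since both lists hold wide peaks. At 2132 sites with 1 peak in each list the median width was 518 bp with water and 818 bp with doxorubicin. The median log2 ratio was 0.52 (1.43-fold), with 1857 sites (87.1%) wider and 271 narrower under doxorubicin, and 304 at least 2-fold wider against 5 at least 2-fold narrower. The midpoints of the paired peaks lay 50.5 bp apart in the median, and 73.5% of the water peaks lay wholly inside their doxorubicin peak. Against the other unactivated lists of tumour 5 the median log2 ratio was 0.67 (untreated), 0.65 (DMSO) and 0.54 ((+)-Nutlin). Among the 4 unactivated lists of tumour 5 it ran from -0.14 to 0.18 over the 6 pairs, so that the change with doxorubicin exceeded each difference between them. It was present at sites of every size: by the geometric mean of both widths, 4 equal classes of 533 sites had median log2 ratios of 0.38 (widest), 0.66, 0.72 and 0.43 (narrowest). A single tumour gives no replicate check. In tumours 6 and 7 the corresponding values, 2.62 over 700 sites and 3.26 over 311, set narrow against wide peaks and do not measure this change.

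Sites of tumour 5 were ranked by their width ratio. First came a region on chromosome 5 from 92390446 to 92392412 (mm9 throughout), of 447 bp with water and 1967 bp with doxorubicin, a log2 ratio of 2.14. It was 1677 and 2027 bp wide with doxorubicin in tumours 6 and 7, where the water lists had a peak of 54 bp and none. On chromosome X, from 17902093 to 17903942, the width went from 445 to 1850 bp. A site on chromosome 4 from 133368981 to 133370578 went from 395 to 1598 bp in tumour 5 and had a peak of 1793 bp in tumour 7, but none in tumour 6. Sites at chr3:61166888-61168759 and chr10:79316651-79318007 completed the first 5, with log2 ratios of 1.94 and 1.88. No water peak lay at the last 4 of these 5 sites in tumours 6 and 7. The strongest opposite change lay on chromosome 7 from 109661499 to 109662840, where tumour 5 had 1342 bp with water and 500 bp with doxorubicin. The doxorubicin peaks of tumours 6 and 7 there measured 1546 and 836 bp. Its choice followed a look at its values.

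The 436 regions called in all 6 lists held the widest doxorubicin peaks, with median widths of 1238.5, 1421.5 and 1401 bp in tumours 5, 6 and 7, against 541, 495 and 590 bp for gained regions. Ranked by width within the doxorubicin lists, the first lay on chromosome 17 from 39979743 to 39985974. It hardly differed between treatments in tumour 5, with 6160 bp with water and 6111 bp with doxorubicin, and was called in all 26 lists of the series, EtOH lists of the Trp53(KI/delta) tumours included. Whether it is a p53 site was not tested. The second, on chromosome 10 from 61050084 to 61053378, measured 2103 bp with water and 2723 bp with doxorubicin in tumour 5, and 3138 and 3295 bp with doxorubicin in tumours 6 and 7. It was absent from all EtOH lists but present in the 22 others. On chromosome 17 from 29225955 to 29230893, each doxorubicin list had 2 peaks, the wider of 2200, 4054 and 2929 bp in tumours 5, 6 and 7. The wider water peak there measured 1678 bp in tumour 5, and the single water peaks of tumours 6 and 7 measured 1102 and 1089 bp. A region on chromosome 3 from 32261803 to 32265043 held 1 peak in every one of the 6 lists, of 3070, 3207 and 2942 bp with doxorubicin and 3029, 1456 and 1031 bp with water. On chromosome 4 from 43986606 to 43990573 the peak of tumour 5 was wider with water (2488 bp) than with doxorubicin (2228 bp). Each of the first 10 regions in this ranking was called in all 22 lists other than EtOH. The first region and that on chromosome 11 from 6425981 to 6429039 were also called in all 4 EtOH lists, the one on chromosome 4 in 2, and the other 7 in none.

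Gained regions were of middling width in the doxorubicin lists, with median percentiles of 58.0, 46.6 and 57.4 in tumours 5, 6 and 7. The widest of them reached the size of regions also bound with water. At the first, on chromosome 13 from 30805898 to 30807601, doxorubicin peaks measured 1080, 1679 and 1554 bp in tumours 5, 6 and 7. At chr7:53861586-53863340 they measured 1122, 1755 and 1204 bp, and at chr3:58320287-58321872 1396, 1210 and 1400 bp. The last of these was called in all (-)-Nutlin and OHT lists and in 2 other unactivated Arf lists, so that its absence from the water lists was not shared by every control. A region on chromosome 2 from 26406822 to 26409833 held 2 peaks in each doxorubicin list, the wider of 864, 2529 and 1137 bp, and was called in 3 of the 9 other unactivated Arf lists. Those at chr8:101370984-101372540 (1168, 1251 and 1405 bp) and chr13:81024360-81025670 (1275, 1122 and 1175 bp) differed little between tumours. At chr16:76642863-76644387, chr3:52250167-52251576 and chr18:5790155-5791588 the peak of tumour 6 was the widest, at 1525, 1410 and 1381 bp, and that of tumour 5 the narrowest, at 835, 878 and 779 bp.

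Because 3 water lists allow no test per region, doxorubicin was also set against the 12 unactivated Arf lists. Of 15109 regions, 1990 (13.2%) were called more often with doxorubicin and 0 (0%) less often (Fisher's exact test per region, Benjamini-Hochberg adjusted p under 0.05). All 1990 had a peak in 3 of 3 doxorubicin lists and 0 of 12 others, with an adjusted p of 0.0167. Since the 12 lists include the 3 water lists, such a region is gained by definition. That all 1990 overlapped a gained region was thus fixed in advance. The 12 lists come from the same 3 tumours, and Fisher's test counted them as independent. Those of tumours 6 and 7 all hold narrow peaks, the smallest of 52 to 54 bp, so kind of list and treatment change together here as well. With labels permuted within tumours 0 regions (0%) were called, the lowest adjusted p being 0.0607, while 6990 had an unadjusted p under 0.05. This permutation cannot go below an unadjusted p of 0.008, which the 1990 regions reached. The 0 therefore does not show that their difference is lost within tumours. Among regions called in 3 doxorubicin lists, 292 were also called in all 12 unactivated lists. A region on chromosome 2, from 98502239 to 98503230 as merged over the 6 lists, had no doxorubicin peak and a peak in 2 water lists, and was called in 8 of the 9 other unactivated lists. It was also called in 3 EtOH lists of the Trp53(KI/delta) tumours and in no (-)-Nutlin or OHT list. Whether it is a p53 site was not tested. The other regions with a peak in 2 water lists and no doxorubicin peak, chr6:3151471-3151533 and chr8:124364678-124364733, held only narrow peaks of tumours 6 and 7, of 52 to 63 bp and 54 to 56 bp. These 3 regions and the next were picked with their values in view. One region called in all 3 water lists missed a doxorubicin list: on chromosome 11, from 102269644 to 102270150, tumour 5 had a water peak of 380 bp and no doxorubicin peak, whereas tumours 6 and 7 had doxorubicin peaks of 358 and 507 bp.

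The 20 other lists took no part in choosing the regions. They are of both kinds. The untreated, DMSO and (+)-Nutlin lists of tumours 6 and 7 and all EtOH lists hold narrow peaks, the smallest of 52 to 54 bp. All (-)-Nutlin and OHT lists and the other lists of tumour 5 hold wide peaks, the smallest of 278 to 391 bp. Outside tumour 5, kind of list and activation therefore change together and cannot be told apart. Of the gained regions, 14.96%, 5.87% and 0.147% were called in the untreated lists of tumours 5, 6 and 7, 4.84%, 0.990% and 0.440% in the DMSO lists and 11.4%, 1.80% and 0.257% in the (+)-Nutlin lists. In all, 1990 of the 2728 (72.9%) had no peak in any of these 9 lists, and none had a peak in more than 5. These are the 1990 regions called above. Such absence was not particular to gained regions. Among the 15109 regions, 5647 called in 1 doxorubicin list and 3391 in 2 also had no peak in any of the 12 unactivated lists. In the merge of the 6 lists, regions without a water peak number 5794 with 1 doxorubicin list and 3977 with 2. Absence was thus more frequent in both of these classes than in gained regions. The untreated list of tumour 5 held 1.02% of regions of 1 doxorubicin and no water list and 7.74% of those of 2. It held 17.7% of all 15038 regions. (-)-Nutlin (5 µM for 3 h) is the active enantiomer, which frees p53 from Mdm2 without breaking DNA. In its lists the shares of gained regions were 80.9%, 67.8% and 56.1% in tumours 5, 6 and 7. OHT (100 nM for 2 h, against 1 volume of EtOH per 1000) was given to tumours 1 to 4 of another genotype, Trp53(KI/delta). In the OHT lists the shares were 36.8%, 34.9%, 58.1% and 54.3% in tumours 1 to 4, and in the EtOH lists 0.110% to 4.84%. Over all 15038 regions the mean share was 53.1% in (-)-Nutlin lists, 38.3% in OHT lists and 6.42% in DMSO lists. Regions of 2 doxorubicin lists and no water list were not set apart from gained regions in every list of activated p53. Their share was 68.0% in the (-)-Nutlin list of tumour 6, near that of gained regions, and 67.4% and 66.9% in the OHT lists of tumours 3 and 4, above it. List length, which differs between these libraries, enters all such shares.

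Regions called in all 6 lists behaved otherwise. They were called in 81.0% to 99.3% of cases in the 9 other unactivated Arf lists and in 99.1% to 99.8% in the (-)-Nutlin lists. In the OHT lists their share did not follow list length, at 95.4% in tumour 1, whose list has 4102 peaks, and 55.3% in tumour 4, whose list has 9738. EtOH lists held 4.59% to 12.4% of them. Regions of 3 doxorubicin and 1 or 2 water lists lay between these and gained regions in the untreated lists, with 79.0%, 42.2% and 3.75% in tumours 5, 6 and 7. They did not in every list: in the OHT list of tumour 4 their share was 47.1%, under both other classes, and in the EtOH list of tumour 3 it was 12.9%, above both.

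**Figure D4:**
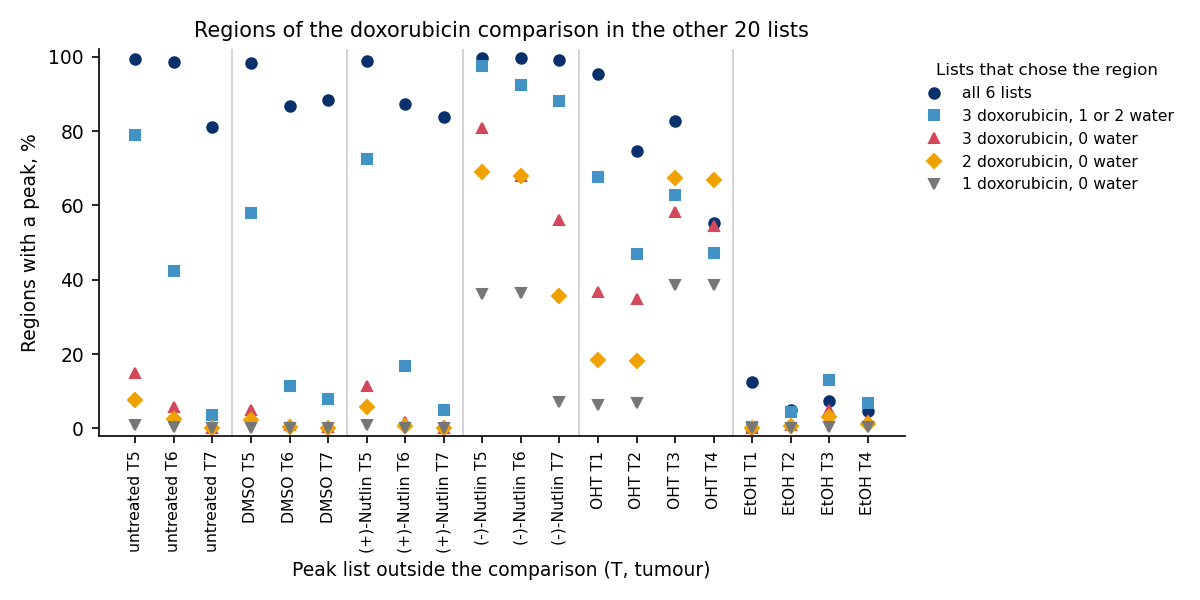
Share of regions, in percent, with a peak in each of the 20 lists outside the comparison, for 5 classes of regions defined by their number of doxorubicin and water lists. Gained regions (triangles) sit at or under 14.96% in untreated, DMSO and (+)-Nutlin lists and at 56.1% to 80.9% in (-)-Nutlin lists, while regions of all 6 lists (circles) stay at or above 81.0% in all of these.

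The doxorubicin list of tumour 6 stood apart in which sites it held. Of the 2053 regions called with doxorubicin in tumour 6 alone and in no water list, 1745 (85.0%) had no peak in any of the 7 (-)-Nutlin and OHT lists. The share was 19.5% of 2983 regions for tumour 5 alone and 33.9% of 758 for tumour 7 alone. Regions shared by tumours 6 and 7 but not 5 were like those of tumour 6, with 77.6% of 838 in none of the 7 lists, while of the 2752 shared by tumours 5 and 7 but not 6 this held for 3.71%. Whether the label and the quality of this library are sound was not tested, and each count of gained regions rests on it except those given without tumour 6. Of the 2752 regions shared by tumours 5 and 7 but not 6, 88.0% and 84.4% were called in the (-)-Nutlin lists of tumours 5 and 6. In the OHT lists of tumours 3 and 4 the shares were 84.2% and 84.9%. By shared share of covered base pairs (Jaccard index), the doxorubicin lists of tumours 5 and 7 reached 0.548, those of 6 and 7 0.450 and those of 5 and 6 0.344. For tumour 5 the (-)-Nutlin list of the same tumour (0.618) was closer than any doxorubicin list. Tumours 6 and 7 went the other way. Their own (-)-Nutlin lists reached 0.267 and 0.450, and their closest doxorubicin lists 0.450 and 0.548.

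Gained regions were spread over the 7 lists of (-)-Nutlin and OHT, with 334 (12.2%) in none of them and 383 (14.0%) in all 7. Each number in between held 232 to 502. Absence from all 7 was not particular to gained regions. Among regions of 1 or 2 doxorubicin lists and no water list, its share ran from 3.71% (tumours 5 and 7) to 85.0% (tumour 6 alone). In tumour 6 the median width of the doxorubicin peak was 644.5 bp at the 334 regions in none and 414 bp at the 383 in all 7. In tumour 5 the order was the opposite, 418 bp against 602 bp, and in tumour 7 the values were 563 and 609 bp. Gained regions called in all 7 of these lists were therefore narrower than those in none in tumour 6 and wider in tumour 5. Both sets of regions also differed in unactivated cells, as 3.29% of the 334 and 51.2% of the 383 had a peak in at least 1 of the 9 other unactivated Arf lists. The number found in no (-)-Nutlin or OHT list was 437 of 5705 gained regions (7.66%) without tumour 6, 1041 of 4602 (22.6%) without tumour 5 and 398 of 3139 (12.7%) without tumour 7.

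**Figure D5:**
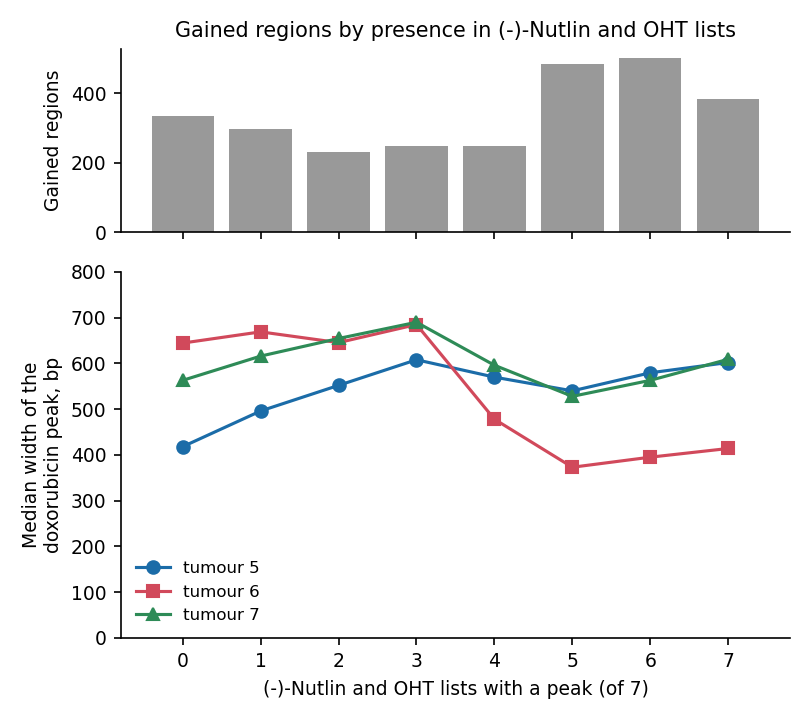
Gained regions by the number of (-)-Nutlin and OHT lists (of 7) in which they had a peak, as counts (bars) and as the median width in bp of the doxorubicin peak in tumours 5, 6 and 7 (lines). In tumour 6 the width is 644.5 bp at 0 lists and 414 bp at 7 lists, in tumour 5 it is 418 bp and 602 bp.

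Among gained regions, 323 (11.8%) were called in none of the 20 other lists. The same share over all regions was not counted. Ranked by width, the first lay on chromosome 4 from 106619865 to 106621216, with doxorubicin peaks of 756, 1352 and 856 bp in tumours 5, 6 and 7. It was followed by regions on chromosome 8 from 82443884 to 82445105 (761, 1222 and 732 bp) and on chromosome 17 from 15783571 to 15784564 (519, 988 and 984 bp). In each of these the peak of tumour 6 was the widest. This ranking was made after the values were seen.

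Gained regions were spread over the genome much as all regions were. They made up 15.4% (chromosome 15) to 21.1% (chromosome 4) of the regions on each autosome and 16.7% on chromosome X, against 18.1% over all. Few lay beside a site bound with water: the nearest region with a water peak was 175 kb away in the median, and 5.87% of gained regions lay within 10 kb of one. For regions of 1 doxorubicin list and no water list the values were 179 kb and 6.21%. The nearest other gained region was 170 kb away in the median.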

How the data were processed

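The authors deposited 1 peak list per immunoprecipitated library, with 3 columns: chromosome, start and end in bp. Per the submitters' processing notes, BWA 0.6.2 and SAMtools were used with build mm9. How peaks were called, at which threshold and whether against the 7 input libraries is not given in these sources. Per the labels' protocols, chromatin fragments averaged 250 bp. The tables of genes and promoters at hand are of another build, so gene names, motifs and sequences at the peaks were not analysed here.

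Peaks were merged into regions with Python 3.11.15, NumPy 2.4.6 and SciPy 1.17.1. Coordinates are printed counted from 1. Groups, and the tumour number that pairs them, come from the titles. Water peaks lay under doxorubicin peaks of their own tumour in 95.8% of cases and of other tumours in 94.7%. The SD between tumours was 2.44 points, and tumour 6 went the other way. These shares therefore cannot check the pairing. Named regions were the first 10 gained and the first 10 called in all 6 lists, by mean width percentile in the doxorubicin lists, and the 5 of tumour 5 with the largest width ratio. Regions, classes and alternatives were chosen with earlier results of these data known. The code was tested on simulated lists.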

Additional observations from a re-analysis of the deposited data

How the results depend on the processing

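The direction of the peak number and of the width ratio held under every alternative run. With 1 tumour left out, the log2 ratio of peak numbers was 2.34 to 2.92, gained regions numbered 3139 to 5705 and lost regions 0 to 2. Regions called against the unactivated lists numbered 0 each time, where 2 against 8 lists allow no p as small as 3 against 12 do. Gained regions in no other activated list numbered 398 to 1041, and those in no other unactivated Arf list 2346 to 4319. The log2 ratio against all 12 unactivated lists was 2.83, within tumours too, and passed 0.05 in both forms, as more lists take part. In tumours 6 and 7 these lists are narrow, so kind of list and treatment still change together. Gained and lost regions became 8195 and 8 with 1 list of each group allowed to differ, 26 and 20 with doxorubicin lists reduced to the length of the water lists, and 9193 and 50 in tumour 5 alone (added after seeing the data). Lost regions were 5 with 200 bp around the midpoint. The 1990 regions called against the 12 lists became 0 with the tumour as a replicate block and 0 at an adjusted p under 0.01. In the block these regions already had its smallest unadjusted p, 0.008. The block changed no other call. Water peaks of at least 400 bp lay under doxorubicin peaks in 99.5% of cases. The width ratio at the same site was 2.62 in tumour 6 and 3.26 in tumour 7, where narrow water peaks enter. Other causes were not tested. Read depth is unknown, so an absent peak may be a missed one. Alternatives on genes and motifs were not run.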
